A study of Homo sapiens with 16 samples.

Results

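The secreted and receptor layer of WNT signalling was examined in chromatin of BE2C cells, a human neuroblastoma line with amplified MYCN. It comprised 37 genes, of 20090 protein-coding genes on the autosomes and the X chromosome. There were 19 WNT ligands, 10 Frizzled receptors, 4 secreted Frizzled-related proteins (SFRP) and 4 Dickkopf proteins (DKK). The genes were listed by family, not by any value measured here, and all 37 were found in the annotation. Each was taken with 5 kb on each side as its window.

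WNT ligands are secreted lipid-modified proteins that bind Frizzled receptors on the cell surface, often together with the coreceptors LRP5 and LRP6, and thereby stabilise β-catenin or activate β-catenin-independent signalling. SFRP proteins bind ligands outside the cell, and DKK1, DKK2 and DKK4 bind the coreceptors, whereas DKK3 is a divergent member of its family. WNT signals help to induce the neural crest, from which neuroblastoma arises. Many of these developmental genes have CpG islands at their starts and are known targets of Polycomb, which deposits trimethylation of lysine 27 of histone H3 (H3K27me3). KDM6B is a demethylase that removes this mark. Monomethylation of lysine 4 (H3K4me1) marks enhancers and the borders of active starts.

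Both marks were mapped by CUT&Tag, in which an antibody tethers a transposase that cuts and tags nearby DNA. Cells given the siRNA siKDM6B33 for 72 h were compared with cells given siCtrl, and cells given 2.5 µM GSKJ4 (GSK-J4, which inhibits the KDM6 family) over the same time were compared with cells given 0.1% DMSO. Each mark and treatment had 2 replicate libraries, which made 16 libraries in 8 groups. All groups were the same cell line, the knockdown used 1 siRNA, and the knockdown and the compound had separate controls. The deposited values were regions called library by library, namely broad islands and narrow peaks, so the measure here was how much of a gene's window islands covered. A gene was called higher or lower when both treated libraries lay on the same side of both controls. An exact two-sided permutation test of 2 libraries against 2 cannot give a p under 0.333. No difference in a single gene could therefore pass 0.05. Each call is read against the percent of all genes that met the same rule. A gene can be lower only where both controls hold an island, and the shares of all genes were not matched for this.

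The lists differed in length. The H3K27me3 lists held 10555 and 10592 islands in siCtrl, 15947 and 15775 in siKDM6B33, 7175 and 7398 in DMSO, and 16676 and 8006 in GSKJ4. The first GSKJ4 H3K27me3 library stood apart, with a median island of 3000 bp beside 7400 bp in the second. The H3K4me1 lists held 21535 and 21699 islands in siCtrl, 24829 and 24917 in siKDM6B33, and 17765 to 19177 in the compound experiment. Each call was therefore repeated with the highest-scoring islands of each library up to an equal covered length. Of the markers of adrenergic neuroblasts, GATA3 had H3K4me1 over 77.8% and 68.8% of its window in siCtrl and ISL1 over 70.9% and 73.1%, whereas the mesenchymal-state markers PRRX1 and TWIST1 had 0% in both and 23.1% and 22.7%. The H3K27me3 lists of the compound experiment differed from those of the knockdown experiment. Over the genome, 50.1% to 66.9% of H3K27me3 island length lay inside H3K4me1 islands in DMSO and GSKJ4, against 8.92% to 11.4% in siCtrl and siKDM6B33. TH, the rate-limiting enzyme of catecholamine synthesis and an adrenergic marker, was covered by H3K27me3 islands over 100% of its window in both DMSO libraries and 0% in both siCtrl libraries. DBH, which makes noradrenaline, had 54.1% and 56.3% in DMSO and 0% in siCtrl. Of the 8 adrenergic markers listed, 4 had an H3K27me3 island in both DMSO libraries and 0 had one in siCtrl. H3K27me3 islands of the compound experiment may therefore not measure the same thing as those of the knockdown experiment, the cause was not tested, and this limit applies to each H3K27me3 value in DMSO and GSKJ4 given here. KDM6B itself could not be checked as a knockdown, because the lists hold no RNA measurement.

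The following sequences are the 200 bases upstream of 4 genes whose starts gained H3K4me1 islands after the knockdown, followed by WNT8A and FZD9, whose starts did not. They are shown because the gain was more frequent at starts rich in CpG, the dinucleotide printed in capitals. WNT8A and FZD9 were chosen as contrasts after their values were seen. Sequences are from GRCh37 (hg19), run 5′ to 3′ in the direction of transcription and end at the last base before the annotated gene.
DKK1, chr10:54073841-54074040, plus strand: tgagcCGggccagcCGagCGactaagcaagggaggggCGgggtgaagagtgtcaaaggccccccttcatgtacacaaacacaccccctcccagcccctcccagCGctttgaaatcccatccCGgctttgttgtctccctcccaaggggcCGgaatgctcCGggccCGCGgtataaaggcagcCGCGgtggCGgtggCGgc
FZD1, chr7:90893548-90893747, plus strand: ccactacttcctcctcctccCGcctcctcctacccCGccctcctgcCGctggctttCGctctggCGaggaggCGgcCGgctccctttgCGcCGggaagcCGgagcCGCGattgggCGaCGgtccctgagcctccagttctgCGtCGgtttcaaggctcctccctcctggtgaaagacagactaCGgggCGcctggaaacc
SFRP2, chr4:154710236-154710435, minus strand: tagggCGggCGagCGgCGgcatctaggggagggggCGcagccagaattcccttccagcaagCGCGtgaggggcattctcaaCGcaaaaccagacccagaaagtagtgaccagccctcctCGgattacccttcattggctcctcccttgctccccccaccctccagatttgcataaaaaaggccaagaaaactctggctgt
FZD5, chr2:208634631-208634830, minus strand: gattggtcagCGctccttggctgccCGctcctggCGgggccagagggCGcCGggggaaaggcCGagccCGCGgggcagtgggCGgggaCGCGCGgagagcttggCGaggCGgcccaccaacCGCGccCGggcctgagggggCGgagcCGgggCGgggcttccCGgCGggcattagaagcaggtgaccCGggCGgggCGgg
WNT8A, chr5:137419479-137419678, plus strand: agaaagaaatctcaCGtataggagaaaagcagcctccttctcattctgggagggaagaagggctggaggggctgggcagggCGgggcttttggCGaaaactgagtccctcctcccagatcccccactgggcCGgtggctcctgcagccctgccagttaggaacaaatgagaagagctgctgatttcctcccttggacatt
FZD9, chr7:72847908-72848107, plus strand: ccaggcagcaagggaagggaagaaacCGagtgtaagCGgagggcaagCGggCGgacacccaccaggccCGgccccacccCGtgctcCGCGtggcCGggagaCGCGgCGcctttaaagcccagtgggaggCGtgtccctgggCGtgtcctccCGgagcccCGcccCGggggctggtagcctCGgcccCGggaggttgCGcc

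The 4 sequences from starts with a gain held 9 to 25 CpG in these 200 bases, with 14 at DKK1 and 25 at FZD5. WNT8A held 4, whereas FZD9, which had no island of either mark in any library, held 20. A start was counted as CpG-rich when the 500 bp on each side had at least 55% G and C and an observed over expected CpG ratio of at least 0.6. By this rule 29 of the 37 starts were CpG-rich (78.4%), compared with 59.7% of all genes.

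H3K27me3 was a widespread feature of these genes in control and treated cells. In siCtrl, islands of this mark reached 27 and 28 of the 37 windows, whereas they reached 23.1% of all gene windows in each library. The canonical start was within 1 kb of an H3K27me3 island in all 8 libraries at 21 of the 37 genes, against 8.93% of all genes. These were WNT1, WNT2, WNT2B, WNT3A, WNT5A, WNT6, WNT7A, WNT7B, WNT9A, WNT9B, WNT10A, WNT10B, WNT11, WNT16, FZD4, FZD8, FZD10, SFRP2, SFRP4, SFRP5 and DKK2. By family, in the first siCtrl library 18 of 19 ligands, 5 of 10 receptors, 3 of 4 SFRP genes and 1 of 4 DKK genes carried an island, and the median coverage was 21.5%, 14.2%, 29.5% and 0%. Differences between the families were not tested. FZD2, FZD3, FZD5, FZD6, FZD9, DKK1 and DKK4 had no H3K27me3 island in any of the 8 libraries.

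As a share of the window, siCtrl H3K27me3 coverage was highest over WNT1 and FZD10, whereas in length the WNT7A window held the most, 33.2 and 40.0 kb. WNT1, a ligand of the developing midbrain, was covered over 100% of its window in both siCtrl and both DMSO libraries. FZD10, a receptor gene without introns, was covered over 82.8% and 85.8% in siCtrl. WNT1 and WNT10B lie 6.586 kb apart on chromosome 12, so their windows overlap and their values are not independent, and in 6 of 8 libraries a single H3K27me3 island spanned both genes. WNT6 and WNT10A, 6.618 kb apart on chromosome 2, are another pair with overlapping windows. No H3K27me3 island and 1 H3K4me1 island, in 1 library, spanned both of them. WNT3 and WNT9B lie 0.046 kb apart on chromosome 17, so their values are not independent either, although 0 islands of either mark spanned both genes.

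H3K4me1 was distributed otherwise. Starts of 7 genes (WNT1, WNT3A, WNT5B, WNT6, WNT7B, WNT10A and WNT10B) lay within 1 kb of an H3K4me1 island in all 8 libraries, compared with 11.3% of all starts, and 6 of them were among the 21 genes with constant H3K27me3. WNT8A, FZD9 and DKK4 had no H3K4me1 island in any library. As a share of the window, H3K4me1 in siCtrl was highest over WNT6, a ligand of epithelial tissues, at 77.1% and 89.4%. WNT7B had 72.8% and 73.7%, which was the greatest length at 48.6 and 49.2 kb, and WNT10A had 69.0% and 75.3%.

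**Figure D1:**
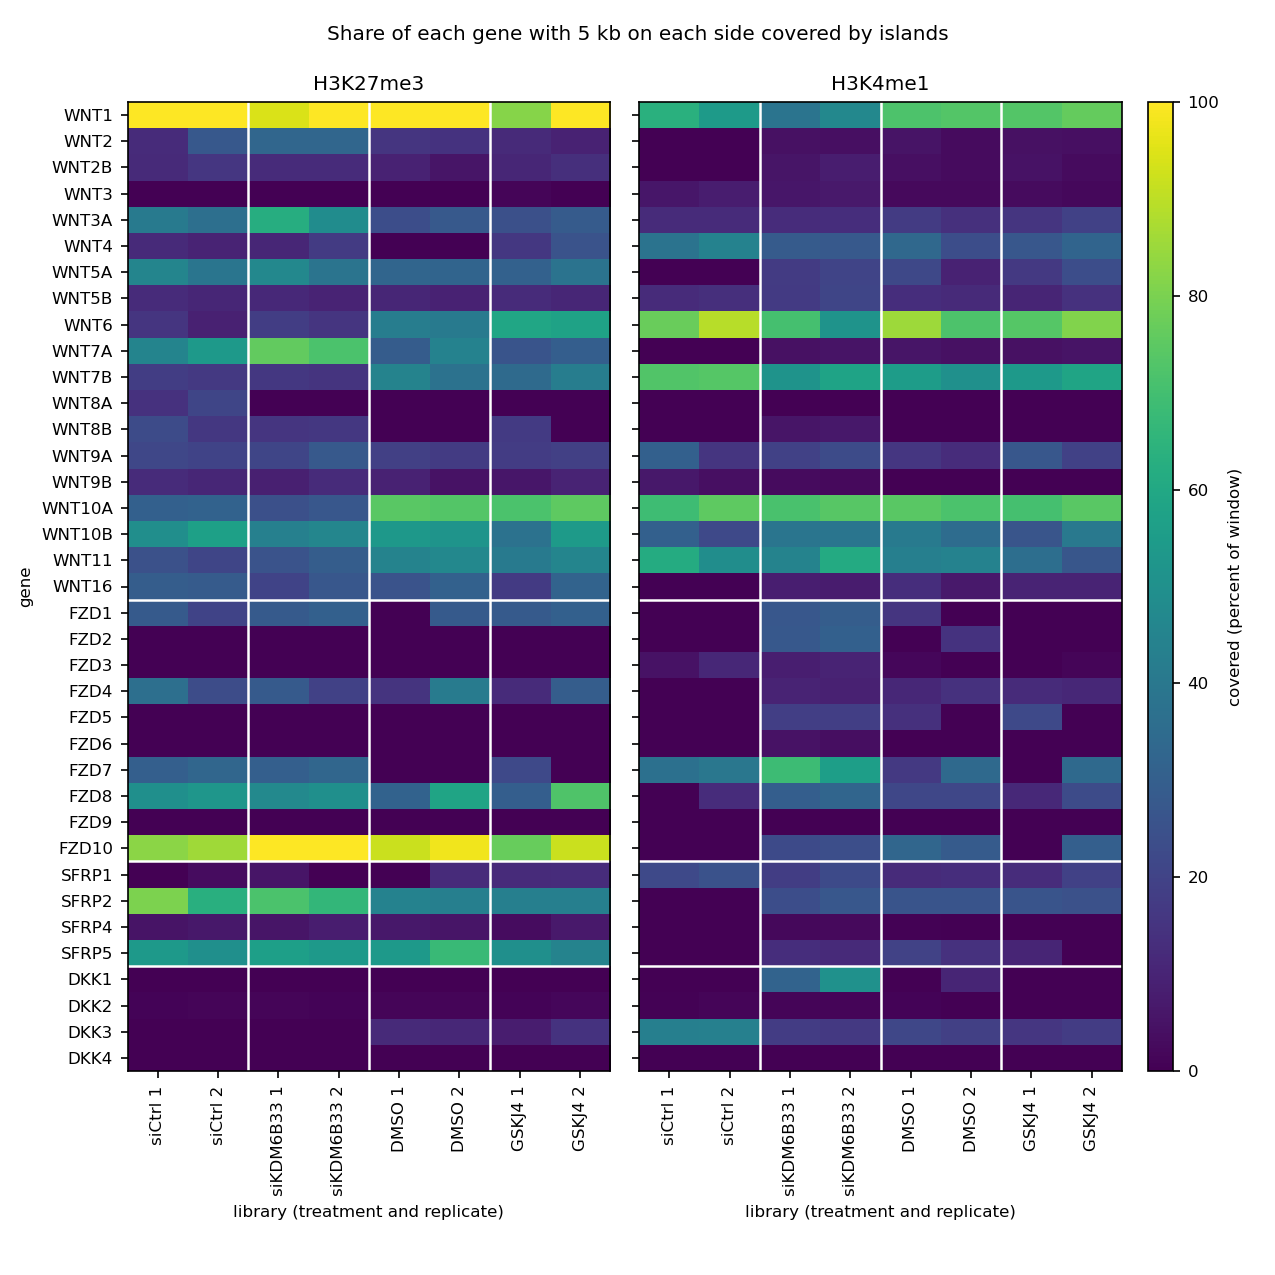
Percent of each gene's window (the gene with 5 kb on each side) covered by H3K27me3 islands (left) and H3K4me1 islands (right), with 1 column per library and 1 row per gene, and white lines between families and treatments. WNT1 and FZD10 are the brightest H3K27me3 rows in siCtrl, and the H3K4me1 rows of FZD1, FZD2 and DKK1 are at 0 in both siCtrl libraries and between 27.2% and 50.6% after siKDM6B33.

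After the KDM6B knockdown, H3K4me1 islands appeared at the starts of many of these genes. The canonical start was within 1 kb of an H3K4me1 island at 11 and 14 of the 37 genes in siCtrl and at 32 and 32 in siKDM6B33. Of the 37 starts, 17 were gained, meaning that they were marked in both siKDM6B33 libraries and in neither siCtrl library, and 0 were lost. Over all genes 30.4% of starts were gained and 0.667% lost, so the gain was genome-wide and the members' share of 45.9% is read against it. The 17 were the ligands WNT2, WNT2B, WNT5A, WNT7A, WNT9B and WNT16, the receptors FZD1, FZD2, FZD4, FZD5, FZD6 and FZD10, the inhibitors SFRP2, SFRP4 and SFRP5, and DKK1 and DKK3. At equal covered length 12 of the 17 starts were still gained, without FZD6, FZD10, SFRP2, SFRP5 and DKK3, and the share of all starts was 24.3%.

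The starts that gained H3K4me1 fell into a group with H3K27me3 and a group without it. In siCtrl, 12 member starts had H3K27me3 islands in both libraries and H3K4me1 islands in neither. All 12 gained an H3K4me1 island after the knockdown. Among all genes, 44.7% of the 2231 starts in that state did so. With lengths equalised 9 of the 12 gained it, without FZD10, SFRP2 and SFRP5, against 32.0% of all such starts. A further 9 member starts had no island of either mark in any siCtrl library. Of these, FZD2, FZD5, FZD6, DKK1 and DKK3 gained an H3K4me1 island, and WNT3, WNT8A, FZD9 and DKK4 did not. For all genes in that state the share was 41.3%. With lengths equalised FZD2, FZD5 and DKK1 gained it, against 32.4%. Of the 29 CpG-rich member starts 16 were gained, against 42.0% of all CpG-rich starts. Of the other 8 only WNT16 was, against 13.2% of all other starts.

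The combination of marks at the starts also differed between siCtrl and siKDM6B33. In siCtrl both libraries of each mark placed 12 starts under H3K27me3 alone, 8 under both marks, 1 under H3K4me1 alone and 9 under neither, and the replicates differed at 7. In siKDM6B33 the counts were 0, 24, 6, 5 and 2. Over all genes, H3K27me3 alone was seen at 11.1% of starts in siCtrl and 6.53% in siKDM6B33, both marks at 3.20% and 8.84%, H3K4me1 alone at 18.4% and 46.0%, and neither at 60.2% and 33.0%. At equal covered length, an alternative added after the data had been seen, the siCtrl counts of the 37 genes were the same. In siKDM6B33 there were then 2 starts under H3K27me3 alone (FZD10 and SFRP5), 18 under both marks and 9 under H3K4me1 alone. A further 5 were under neither, and the replicates differed at 3. Over all genes at equal covered length, H3K27me3 alone was at 11.2% of starts in siCtrl and 5.12% in siKDM6B33, and both marks at 3.04% and 5.13%. H3K4me1 alone was at 17.5% and 42.7%, and neither at 61.1% and 41.8%. DMSO cells, the other control group, had 2 starts under H3K27me3 alone, 18 under both marks and 3 under H3K4me1 alone. A further 8 were under neither, and the replicates differed at 6. Over all genes the DMSO shares were 3.09%, 8.07%, 9.10%, 70.3% and 9.44%, in the same order. The 2 control groups came from separate experiments, so their difference cannot be told apart from a difference between the experiments, and the high overlap of the marks in DMSO over the whole genome bears on its 18 starts.

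**Figure D2:**
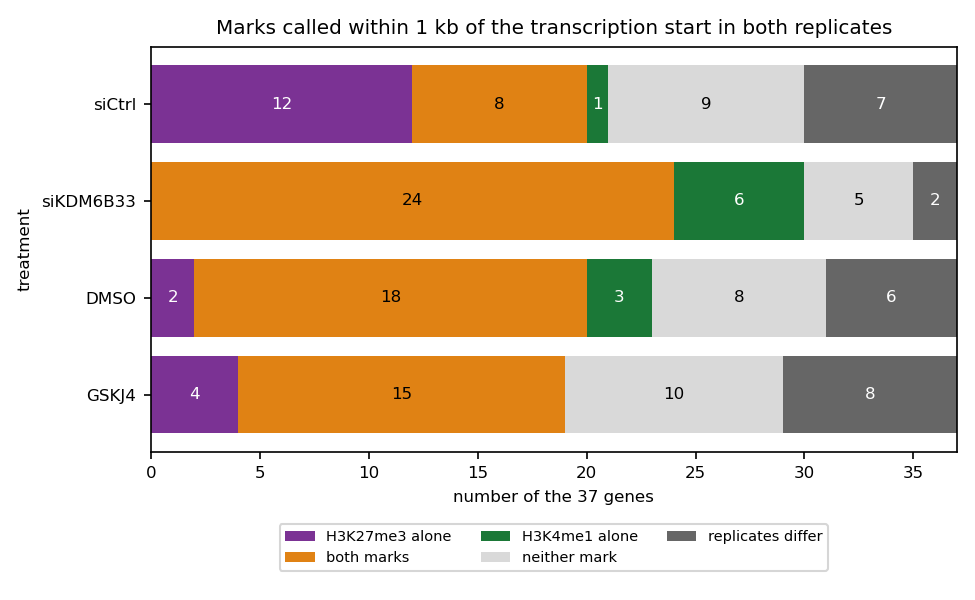
Number of the 37 genes whose canonical start lay within 1 kb of islands of H3K27me3 alone, both marks, H3K4me1 alone or neither mark in both replicates, for each treatment (stacked bars, genes in which replicates differed in dark grey). H3K27me3 alone is seen at 12 starts in siCtrl and at 0 in siKDM6B33, where both marks are seen at 24, in the full lists (2 and 18 at equal covered length).

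Near the start the groups were far apart. At 0.1 kb downstream of it, H3K4me1 islands covered 29.7% and 37.8% of the 37 genes in siCtrl and 86.5% in each siKDM6B33 library. Within 2.5 kb of the starts, H3K4me1 islands covered 24.4% and 28.1% of the sequence in siCtrl and 58.8% and 62.4% in siKDM6B33. In the rest of the windows, they covered 11.1% and 11.3% in siCtrl and 8.54% and 9.55% in siKDM6B33. H3K4me1 coverage was therefore higher near the starts and lower elsewhere, without overlap between the groups in either place. H3K27me3 near the starts overlapped between the groups, at 60.9% and 58.6% in siCtrl and 62.3% and 59.8% in siKDM6B33. When lengths were equalised the H3K4me1 order near the starts was the same, at 24.4% and 28.1% and then 55.1% and 57.5%, but H3K27me3 no longer overlapped and was lower in siKDM6B33, at 53.2% and 52.9%. Over all starts H3K4me1 covered 16.2% and 16.0% within 2.5 kb in siCtrl and 39.7% and 39.6% in siKDM6B33 in the full lists.

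**Figure D3:**
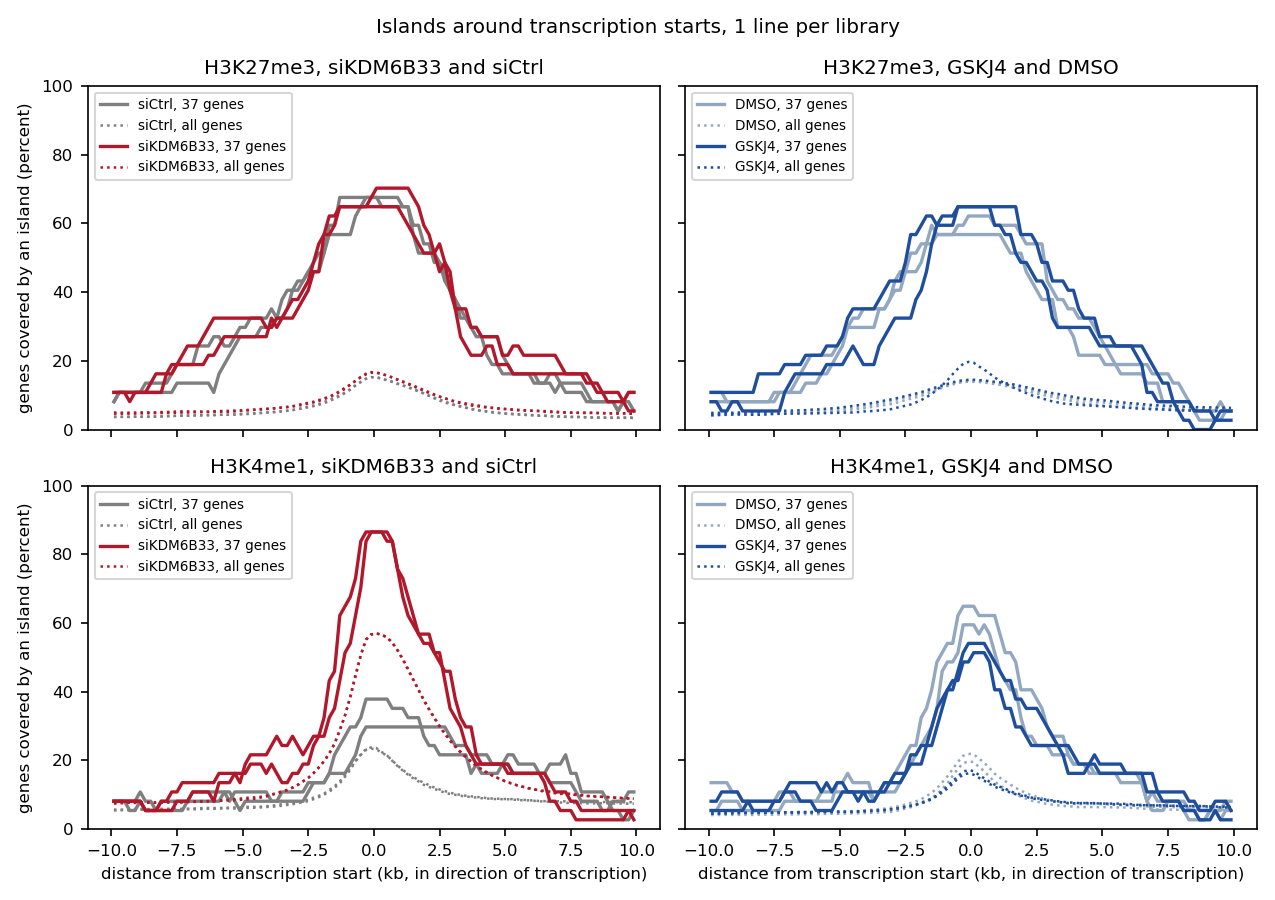
Percent of genes covered by an island against distance from the transcription start in kb, 1 line per library, for the 37 genes (solid) and all genes (dotted), with H3K27me3 above, H3K4me1 below, the knockdown on the left and the compound on the right. The siKDM6B33 H3K4me1 lines reach 86.5% at the start of the 37 genes, above the siCtrl lines at 29.7% and 37.8%, and the dotted lines of all genes show the same order.

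The narrow peaks, called by another tool from the same reads, gave further detail. Peaks at a −log10 q of at least 5 were found at 5 and 3 member starts in siCtrl and at 26 and 27 in siKDM6B33, compared with 21.5% and 21.3% and then 55.6% and 55.1% of all starts. By these peaks 18 member starts were gained, 13 of them among the 17 gained by islands, against 25.6% of all starts, a count added after the data had been seen. With peaks of any q, 7 member starts were gained, against 11.2% of all starts, and only WNT2 and FZD10 were among the 17. At the FZD1 start the highest peak reached a fold enrichment of 4.59 in the first siCtrl library and there was no peak in the second, against 10.3 and 9.63 in siKDM6B33. At the WNT5A start it was 2.75 and no peak, against 11.0 and 9.07. Peaks of any q were found at 19 and 18 member starts in siCtrl and at 30 and 31 in siKDM6B33. The shares of all starts were 44.8% and 44.3% and then 63.0% and 62.7%. Of the 17 starts gained by islands, only WNT2 and FZD10 had no peak in either siCtrl library. At the others H3K4me1 was thus also called in at least 1 siCtrl library. DKK1 had a peak of 6.51-fold and 4.15-fold in siCtrl, and 9.01-fold and 8.31-fold in siKDM6B33. SFRP2 had no peak at its start in the first siKDM6B33 library, 5.11-fold in the second, and no peak and 3.52-fold in siCtrl. FZD9 and WNT8A had no peak at the start in any of the 4 libraries.

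Over whole windows, 22 of the 37 genes had higher H3K4me1 coverage after the knockdown and 6 had lower coverage, compared with 46.4% and 9.66% of all genes. Once covered lengths were equalised these numbers were 17 and 6, and the shares of all genes 38.8% and 11.8%. By family, 8 of 10 receptors were higher and 0 lower, 3 of 4 SFRP genes higher and 0 lower, 9 of 19 ligands higher and 5 lower, and 2 of 4 DKK genes higher and 1 lower. With equalised lengths 6 receptors were higher, SFRP2 and SFRP4 were higher, and SFRP1 was lower (22.3% and 25.4%, then 12.2% and 18.1%). DKK1 was still higher and DKK3 lower, whereas DKK2 and WNT8B were no longer higher and WNT1 was no longer lower. Differences between the families were not tested. Median member coverage was 0% in both siCtrl libraries and 17.2% and 18.5% in siKDM6B33. The median difference was 4.28 percentage points in the 37 genes and 1.06 in all genes, whereas the mean differences were 5.60 and 5.15.

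DKK1, which antagonises WNT signalling through LRP5 and LRP6, had the greatest difference. Its H3K4me1 coverage was 0% in both siCtrl libraries and 31.7% and 50.6% in siKDM6B33, a difference of 41.1 percentage points (siKDM6B33 mean 41.1% ± 13.4 SD, n = 2). FZD2, a receptor in both branches of the pathway, had 0% in both siCtrl libraries and 27.6% and 30.5% in siKDM6B33. FZD1 had 0% in both and then 27.2% and 29.6%. In each of these genes the treated libraries were well above controls that had no island at all, and the exact permutation p was 0.333, the smallest possible.

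SFRP2, which binds WNT ligands, had 0% H3K4me1 in both siCtrl libraries and 23.8% and 27.04% after the knockdown. FZD10 also began at 0% and had 22.6% and 24.1%, but at equal covered length all 4 of its libraries were at 0%. FZD8, an intronless receptor gene, had 0% and 12.8% in siCtrl and 29.9% and 32.7% in siKDM6B33. FZD7, a receptor expressed in many progenitor cells, already carried H3K4me1 over 37.0% and 39.8% of its window in siCtrl and had 68.6% and 56.2% after the knockdown. These receptor genes had treated values above both controls, and the separation was widest in FZD1 and FZD2.

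In the opposite direction, DKK3 had the greatest difference in the full lists (−26.1 percentage points), whereas at equal covered length WNT6 (−32.9) and WNT7B (−30.7) exceeded it (−28.0). H3K4me1 islands covered 43.1% and 43.4% of its window in siCtrl and 17.6% and 16.7% in siKDM6B33, although its start gained an island. WNT6 had 77.1% and 89.4% and then 70.5% and 51.4%, WNT7B 72.8% and 73.7% and then 51.2% and 58.1%, and WNT1 63.6% and 54.5% and then 38.4% and 46.8%. WNT4, a ligand of kidney and gonad development, had 38.2% and 44.2% and then 28.9% and 27.8%. These 5 genes had H3K4me1 over at least 38.2% of the window in each siCtrl library. WNT9B, the sixth, had 6.30% and 4.09% and then 2.83% and 2.52%, with a gained start. In lists of equal covered length WNT1 was no longer apart, and DKK3, WNT4, WNT6, WNT7B and WNT9B were still lower.

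**Figure D4:**
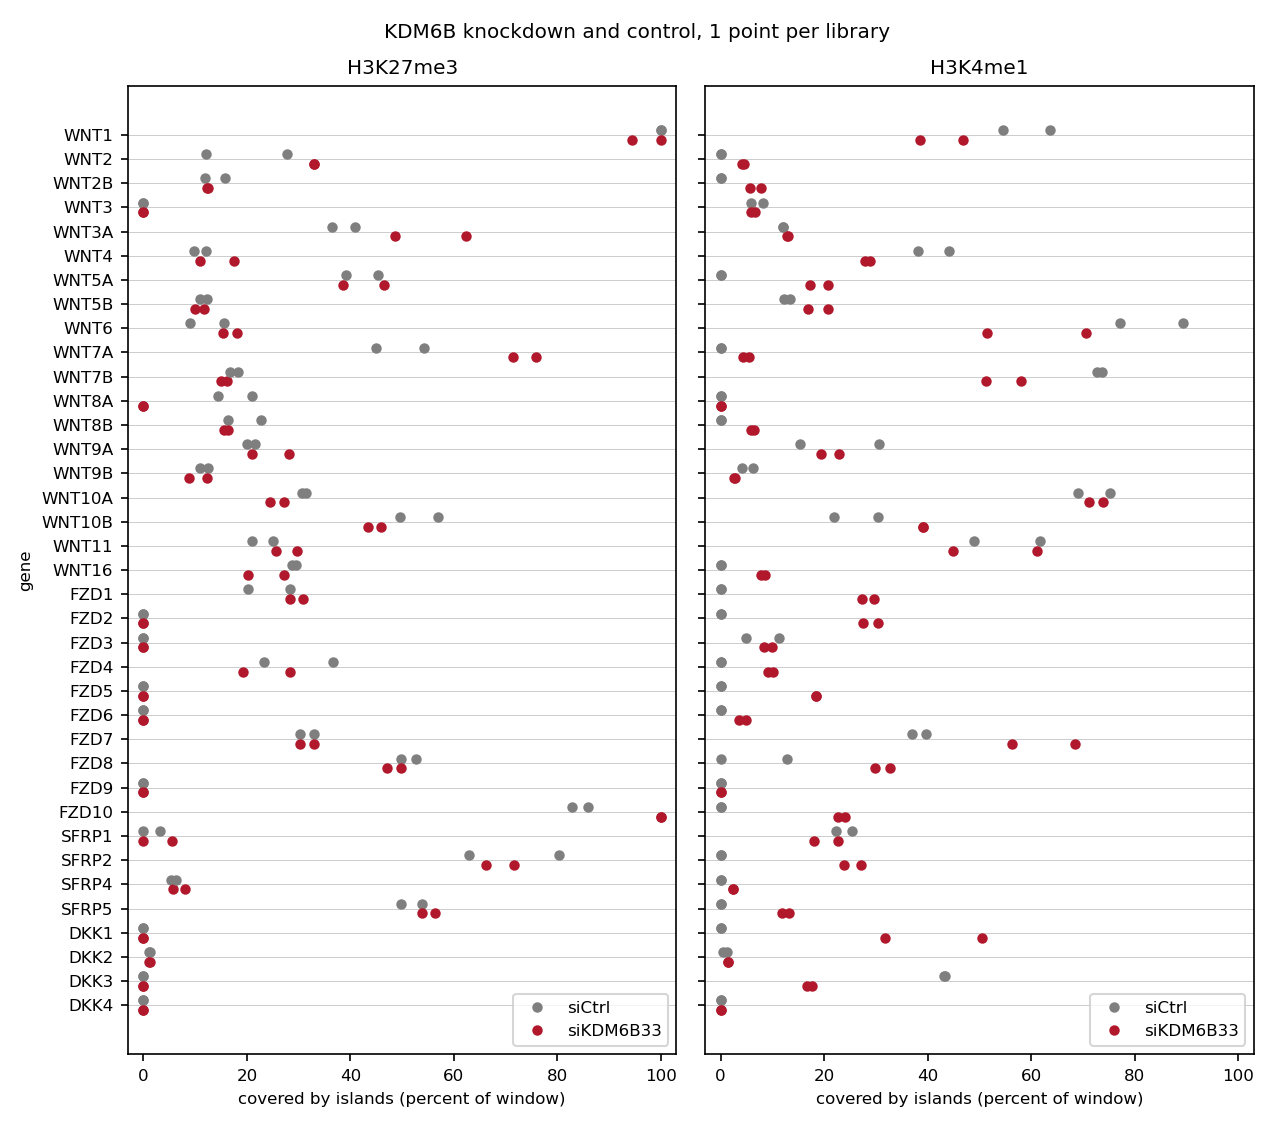
Percent of each gene's window covered by H3K27me3 (left) and H3K4me1 islands (right) in the knockdown experiment, with 1 point per library for siCtrl (grey) and siKDM6B33 (red). The H3K4me1 points of DKK1 lie at 0% in siCtrl and at 31.7% and 50.6% in siKDM6B33, those of DKK3 at 43.1% and 43.4% and then at 17.6% and 16.7%, and most H3K27me3 points of the groups overlap.

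H3K27me3 differed less after the knockdown, in both directions. Coverage was higher in 5 genes (WNT2, WNT3A, WNT7A, WNT11 and FZD10), compared with 10.0% of all genes. It was lower in 5 (WNT7B, WNT8A, WNT10A, WNT10B and WNT16), compared with 3.26% of all genes. In siCtrl, however, H3K27me3 islands reached 27 and 28 member windows and only 23.1% of all gene windows. The lower share of all genes is therefore not a matched reference, and no excess of loss in these genes is read from it. In the full lists no member start was gained or lost, against 1.27% and 0.418% of all starts. At equal covered length 3 member starts were lost (WNT4, WNT6 and WNT10A), and the share of all starts is not given for that rule. The balance of higher and lower genes also depended on the length of the lists. At equal covered length 3 genes were higher and 10 lower, and the shares of all genes were 4.10% and 8.72%. The limit on the lower share applies here too. WNT7A, WNT11 and FZD10 were higher in both versions, and the 5 lower genes were lower in both.

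WNT7A, a ligand of limb and neural patterning, had the greatest H3K27me3 difference in the full lists. At equal covered length its difference was 20.7 points, and SFRP2 (−35.1) and WNT10A (−22.97) exceeded it. SFRP2, which overlapped between the groups in the full lists, there had 80.2% and 62.9% in siCtrl and 36.96% and 35.9% in siKDM6B33. In the full lists WNT7A was covered over 45.0% and 54.2% in siCtrl and over 75.8% and 71.5% in siKDM6B33, a difference of 24.1 percentage points (49.6% ± 6.51 and 73.7% ± 3.07, SD, n = 2 each, exact permutation p = 0.333). FZD10 was covered over 82.8% and 85.8% in siCtrl and over 100% in both siKDM6B33 libraries. WNT11, a ligand of β-catenin-independent signalling, had 25.0% and 20.9% and then 25.6% and 29.6%. In WNT7A the gap between the groups exceeded the gap between replicates, whereas in WNT11 the groups nearly touched.

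WNT3A, a ligand that activates β-catenin, had 40.9% and 36.5% in siCtrl and 62.3% and 48.7% in siKDM6B33. WNT2 had 12.1% and 27.7% and then 32.9% in both. Neither gene was apart at equal covered length. WNT8A had 14.4% and 21.0% in siCtrl and 0% in both siKDM6B33 libraries, as also in all 4 libraries of the compound experiment. Its siCtrl islands covered 2.65 and 3.85 kb, and no narrow H3K27me3 peak lay in its window in any library. WNT10B had 49.5% and 56.8% and then 43.4% and 45.9%, WNT16 29.5% and 28.8% and then 20.2% and 27.2%, and WNT10A 30.6% and 31.3% and then 24.4% and 27.1%. For WNT10A the size of the difference depended on the list length, since at equal covered length it had 30.6% and 31.3% in siCtrl and 7.66% and 8.35% in siKDM6B33, and its start lost the island.

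The marks also shared more sequence in the windows after the knockdown. Within the 37 windows, which together span 1835 kb, 21.9% and 21.2% of the H3K27me3 length lay inside H3K4me1 islands of the same replicate number in siCtrl, and 39.4% and 41.3% did in siKDM6B33. For the whole genome the values were 9.06% and 8.92% and then 11.3% and 11.4%. In the compound experiment the overlap was 62.8% and 49.2% in DMSO and 60.7% and 55.1% in GSKJ4 within the windows, and 57.7% and 50.1% and then 66.9% and 52.4% over the genome. The high overlap in the compound experiment was thus not particular to these windows, and its H3K27me3 islands cannot be assumed to be comparable with those of the knockdown experiment. The libraries measure populations of cells, and islands that overlap need not lie on the same molecules.

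GSKJ4 gave no such pattern. H3K4me1 lay at 24 and 23 of the 37 starts in DMSO and at 19 and 20 in GSKJ4, and the share of all starts was also lower, at 23.2% and 21.1% and then 17.8% and 18.7%. By the rule, 0 member starts were gained and 0 lost, against 0.518% and 2.26% of all starts. Within 2.5 kb of the starts H3K4me1 covered 49.1% and 41.2% in DMSO and 35.6% and 39.1% in GSKJ4, with no overlap between the groups, and at 14.2% and 12.3% and then 11.2% and 11.7% over all starts. Narrow H3K4me1 peaks in the windows numbered 120 and 87 in DMSO and 97 and 114 in GSKJ4, which was 0.161% and 0.142% and then 0.129% and 0.150% of each library's peaks. In siCtrl there were 204 and 214 and in siKDM6B33 292 and 277, from longer lists, or 0.155% and 0.170% and then 0.224% and 0.215%. H3K4me1 coverage of the whole window was higher in 1 gene (WNT9A) and lower in 3 (WNT11, SFRP5 and DKK3), compared with 10.3% and 7.99% of all genes. With lengths equalised 2 genes were higher and 5 lower, with 8.26% and 8.73% of all genes.

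WNT11 had H3K4me1 over 43.1% and 44.3% of its window in DMSO and 36.1% and 26.7% in GSKJ4, a difference of −12.25 percentage points. SFRP5, an inhibitor that binds ligands, had 19.7% and 14.4% in DMSO and 10.5% and 0% in GSKJ4. WNT9A had 15.8% and 12.7% in DMSO and 26.99% and 19.3% in GSKJ4. DKK3 had 21.4% and 18.9% and then 15.7% and 17.6%. The groups were close in DKK3 and overlapped at equal covered length, at 16.7% and 18.9% and then 11.0% and 17.6%. In the full lists the exact permutation p was 0.333 for each of these genes. Whether the effect of the compound on any gene differed from that of the knockdown was not tested.

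H3K27me3 coverage after GSKJ4 was higher in 4 genes (WNT2B, WNT4, WNT5B and WNT6) and lower in 3 (WNT1, WNT2 and SFRP5), compared with 5.54% and 4.04% of all genes. At equal covered length 3 genes were higher and 5 lower, against 2.85% and 4.99%. In DMSO, H3K27me3 islands reached 23 and 25 member windows and 24.5% and 25.3% of all gene windows. The lower shares of all genes are therefore not a matched reference here either. No member start was gained or lost, and 0.806% and 0.134% of all starts were. WNT4 had 0% in both DMSO libraries and 16.4% and 25.6% in GSKJ4, but 0% in all 4 libraries at equal covered length. WNT6 had 42.4% and 40.8% in DMSO and 59.1% and 57.4% in GSKJ4 in both versions, a difference of 16.7 percentage points (41.6% ± 1.16 and 58.2% ± 1.16, SD, n = 2 each, exact permutation p = 0.333). These WNT6 islands lay 100% inside H3K4me1 islands in both DMSO libraries and 100% and 90.02% in GSKJ4, and in siCtrl H3K27me3 covered 15.6% and 9.01% of the window, so the limit on the H3K27me3 lists of the compound experiment bears on this value. SFRP5 had 53.8% and 67.9% and then 49.8% and 44.6%. WNT1 was covered over 100% in both DMSO libraries and over 81.8% and 99.98% in GSKJ4, so its call rested on 1 library, the one that stood apart.

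The remaining WNT pathway was represented by 51 genes, listed by role. After the knockdown 21 of them had higher and 9 lower H3K4me1 coverage, and 18 starts were gained, shares that can be read against the same 46.4%, 9.66% and 30.4% of all genes. Of the 13 cytoplasmic components among them, 8 were higher and 2 (CSNK1E and NKD2) lower. CTNNB1, which encodes β-catenin, had 0% in both siCtrl libraries and 6.10% and 5.57% in siKDM6B33, and AXIN2, a feedback inhibitor and target of the pathway, had 0% and then 6.96% and 7.43%. LRP6, a coreceptor, had 0% and then 3.11% and 2.98%, whereas LRP5 had 36.3% and 35.5% and then 22.5% and 26.3%. LEF1, a transcription factor at the end of the pathway, had 4.41% and 4.57% and then 13.5% and 11.7%.

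H3K27me3 coverage after the knockdown was higher in 9 and lower in 6 of these 51 genes, against 10.0% and 3.26% of all genes. LEF1 had 25.3% and 32.5% in siCtrl and 17.2% and 8.30% in siKDM6B33. APCDD1, a membrane inhibitor of WNT signalling, had 21.6% and 15.4% and then 44.6% and 39.3%. After GSKJ4, H3K27me3 was higher in 3 and lower in 5 of the 51, against 5.54% and 4.04% of all genes, and H3K4me1 higher in 7 and lower in 3, against 10.3% and 7.99%. The 1 start lost was that of FRZB, a secreted Frizzled-related inhibitor, at which H3K4me1 coverage of the window was 4.61% and 4.15% in DMSO and 0% in both GSKJ4 libraries.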

How the data were processed

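BE2C cells were profiled by CUT&Tag for H3K27me3 and H3K4me1 in 16 libraries (8 groups of 2 replicates), grouped by their titles. Per the labels and the study's methods, the authors aligned reads to hg19 with BWA 0.7.12, removed duplicates with Picard 1.65 and selected paired, uniquely mapped fragments with SAMtools 1.3.1. The authors called islands with SICER 1.1, and each deposited island carries a SICER score, which rises with depth and width. MACS2 was used by the authors for narrow peaks (version 2.1.1 in the labels, while the methods give another version), and the deposited lists hold each peak's fold enrichment (a ratio) and its −log10 q and −log10 p in its own library. Replicates were not pooled. The authors scaled reads by E. coli DNA and tested them with voom and limma, which could not be repeated because the lists hold no reads per region. Read depth is therefore unknown here, no counting interval is given, and the number and length of regions, which grow with depth, limit precision.

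Coverage by merged islands was computed for each gene with 5 kb on each side in Python 3.11.15 (NumPy 2.4.6, pandas 2.3.3, figures in matplotlib 3.10.9) on GRCh37 with GENCODE genes. Of 1382636 regions, 0 passed a chromosome end. Coordinates are 1-based hg19. Starts were canonical transcript starts, with an island within 1 kb. Groups were called apart when both treated libraries lay on 1 side of both controls, and differences in single genes carry an exact permutation p (two-sided). The code was tested on simulated region lists. In each comparison up to 8 apart genes with a difference of at least 5 percentage points were described. Some items that the rules would name are not reported here. Other genes named with values were chosen after their values were seen. Members, gene lists and tests were chosen with earlier results of these data known. p-values measure the spread between these libraries, which the study calls biological replicates. Windows of 3 members hold the start of another gene (FBXL14 at WNT5B, FBXO16 at FZD3 and EPDR1 at SFRP4). Alternatives were other windows, list lengths, narrow peaks, a replicate block and leaving out each replicate.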

Additional observations from a re-analysis of the deposited data

Results flagged for a closer look

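WNT2 and SFRP5 were singled out because a mark was on opposite sides of the control in the knockdown and in the compound experiment, in every library of each. H3K27me3 coverage of WNT2 was higher after siKDM6B33 by 13.0 percentage points and lower after GSKJ4, by −4.16 points. H3K4me1 coverage of SFRP5 was higher after siKDM6B33 by 12.5 points and lower after GSKJ4, by −11.80 points. The difference between the experiments was not tested, and each had its own controls. At equal covered length neither WNT2 for H3K27me3 nor SFRP5 for H3K4me1 was apart in the knockdown.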

How the results depend on the processing

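The starts that gained H3K4me1 after the knockdown numbered 17 as reported and 17 to 21 without 1 replicate, but 7 when narrow peaks replaced islands, of which only WNT2 and FZD10 were among the 17. With narrow peaks of a −log10 q of at least 5, an alternative chosen after seeing the data, they were 18, and 13 were among the 17. Genes with higher H3K4me1 coverage numbered 22 to 24 and those with lower coverage 6 to 10 without 1 replicate, the 10 being without the first siCtrl library. Mean member coverage was higher by 5.60 percentage points, beside 5.15 for all genes, by 10.0 in gene bodies without flanks, 3.57 with 10 kb flanks, 3.48 at equal covered length, 0.679 with narrow peaks, and 4.93 to 6.27 without 1 replicate. Narrow peaks in the windows were more by 75.5, by 93.5 at a −log10 q of at least 2, and by 68 to 83 without 1 replicate.

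The other comparisons moved with the processing, and the cause was not tested. For H3K27me3 in the knockdown, the 5 higher and 5 lower genes were 3 and 10 at equal covered length, 8 to 11 and 8 to 10 without 1 replicate, and the lower ones were 2 with narrow peaks and 1 with a gap of at least 5 percentage points. The mean difference of 0.989 was −2.57 at equal covered length, 0.363 with equal numbers of islands and −0.0183 with narrow peaks. Starts gained were 0 to 1 and lost 0 to 1 without 1 replicate, with 1 lost with narrow peaks and 3 (WNT4, WNT6 and WNT10A) at equal covered length. The difference of 6.5 narrow peaks was 1.5 at a −log10 q of at least 2, −18.5 at 5 and −4 with equal numbers of peaks.

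For H3K27me3 with the compound, the 4 higher genes were 2 with equal numbers of islands, 8 with narrow peaks and 2 with the 5-point gap, and the 3 lower were 5 at equal covered length, 5 with narrow peaks and 0 with the gap. Without 1 replicate the higher genes were 6 to 16, the 16 being without the first GSKJ4 library, the lower genes 3 to 16, the 16 being without the second, and the starts gained 0 to 2. For H3K4me1 with the compound, the 1 higher gene was 2 with 10 kb flanks, 2 at equal covered length, 5 with narrow peaks, 0 with the gap and 3 to 9 without 1 replicate. The 3 lower were 5 at equal covered length, 6 with narrow peaks, 1 with the gap and 5 to 15 without 1 replicate, the 15 being without the second DMSO library. Starts lost were 3 with narrow peaks, 2 at equal covered length and 2 to 3 without 1 replicate, and starts gained were 0 to 1. Leaving out a library makes the rule of separation easier to meet. No share of all starts is given for the starts lost under the alternatives of this section.

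With a replicate block, in which treated minus control had the same sign in both same-numbered pairs, the higher and lower genes were 8 and 8 for H3K27me3 and 22 and 7 for H3K4me1 in the knockdown, and 7 and 7 and then 3 and 3 with the compound. The numbers do not pair the libraries, since the correlation of same-numbered deviations across genes was −0.042 to 0.069. Of the 230 alternative values of the 23 gene differences described, 223 kept their sign. The 7 that turned were WNT3A (−0.00078 percentage points), FZD10 (−0.870), WNT16 (0.144) and WNT10A (0.278) for H3K27me3 in the knockdown, SFRP5 (0.0131) and WNT9A (−0.031) for H3K4me1 with the compound, all with narrow peaks, and SFRP5 for H3K27me3 with the compound (1.02) in the gene body.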
